A study of Mus musculus with 4 samples.

Results

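The genes described here are the Id inhibitors Id1, Id2 and Id3 and their E protein partners Tcf3, Tcf4 and Tcf12, 6 of the 22558 genes counted, chosen by gene symbol. Their RNA was compared between activated lung ILC2s of WT mice (C57BL/6, 2 libraries) and of mice labelled ICAM-1 KO (2 libraries). The latter carry the constitutive Icam1 tm1Jcgr allele in every cell and have C57BL/6 as the labelled background. Their strain name in the paper also holds a donor strain of the allele. The allele and any donor DNA left around it cannot be told apart here. All mice were 6 weeks old by their labels and had received 3 intranasal rmIL-33 doses (0.5 µg each). Lungs were taken on day 4, and CD45+ ST2+ CD127+ cells were sorted to a purity of over 95%. The sort left out cells with lineage markers of T cells (TCRβ, TCRγδ, CD3ε, CD5, CD4), B cells (CD45R), myeloid cells (CD11b, CD11c, Gr-1), mast cells and basophils (FcεRIα) and red cells (Ter119). Each library is a pool of 4 mice, so the spread between libraries is not that between animals. The RNA of Icam1 was not lower in the ICAM-1 KO-labelled libraries, at normalized counts of 97.6 and 110 against 85.2 and 83.3 in WT (log2 fold change 0.33, adjusted p = 0.0745 by quasi-likelihood in edgeR), so every direction given below rests on the labels. In GENCODE M21, 1 antisense gene overlaps Icam1, and whether counting used strand is not stated, so the count of Icam1 may share reads with it. A gene-level count does not show whether the RNA yields protein, which was not measured in these files.

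Id proteins are small helix-loop-helix proteins that have no basic DNA-binding region. They pair with E proteins, the basic helix-loop-helix factors made by Tcf3 (E12 and E47), Tcf12 (HEB) and Tcf4 (E2-2), and the pair cannot bind the E-box sites that E proteins recognise. Id2 is required for the development of ILC2s and other innate lymphoid cells, E proteins drive the B and T cell programmes, and Id2 and Id3 together limit how far E proteins act in lymphocytes.

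The libraries held 24796148 to 28782471 counts on genes. The normalized count used for single genes is the authors' value, which adds 1 to the count and scales it by 1 factor for each library. Of the 15 ILC2 marker genes listed, all 15 were counted in every library and their summed normalized count was 7437 and 7996 in WT and 6416 and 6516 in the ICAM-1 KO-labelled libraries. Among these 15 genes 1 was higher and 4 were lower with an adjusted p under 0.05, against 8.8% higher and 4.97% lower of all genes tested. Gata3, the lineage factor of ILC2s, had a log2 fold change of -0.14 (adjusted p = 0.363 by quasi-likelihood in edgeR). The median log2 fold change of the 15 was -0.06, with 7 positive and 8 negative values.

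All 6 Id and E protein genes passed the limits on low counts and were among the 11711 genes tested. The 3 Id genes differed between the groups with an adjusted p under 0.05, Id1 and Id3 higher and Id2 lower in the ICAM-1 KO-labelled libraries, and none of the 3 E protein genes did. Over all genes tested, 8.8% were higher and 4.97% lower by this rule, and 4.94% were higher and 0.538% lower with a change of at least 2-fold as well, which Id1 and Id3 reached and Id2 did not. Both ICAM-1 KO-labelled libraries lay above both WT libraries for 4 of the 6 genes and below them for 1, against 28.3% and 31.3% of all genes tested. The median log2 fold change was 0.50 for the 6 genes and 0.01 for all genes tested.

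**Figure D1:**
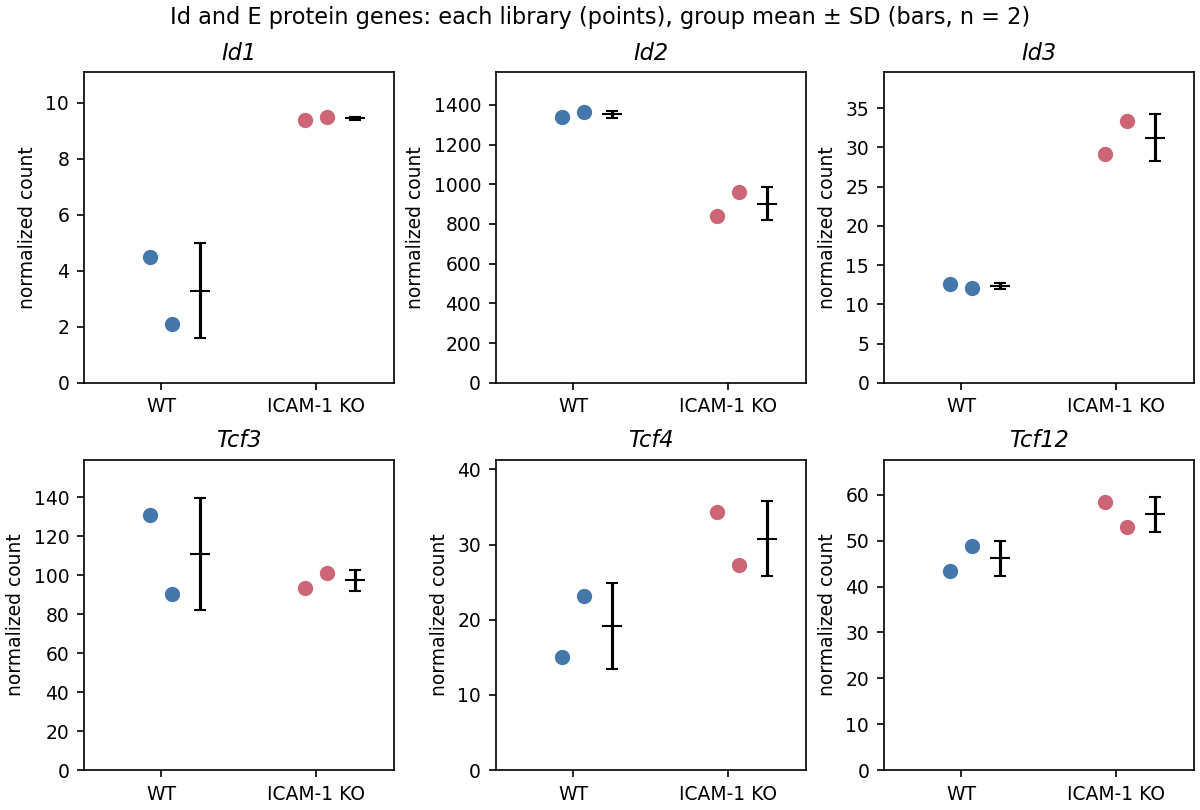
Normalized count of each Id and E protein gene in the 2 WT libraries and the 2 ICAM-1 KO-labelled libraries (points), with the group mean and SD of n = 2 (bars) and a separate linear axis from 0 for each gene. The groups are far apart for Id1, Id2 and Id3, close for Tcf4 and Tcf12, and they overlap for Tcf3, where WT replicate 1 stands at 131 and the other 3 libraries lie between 90.4 and 101.

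Id2, the Id protein on which ILC2 development depends, is a minus-strand gene of chromosome 12 (mm10, 25093799 to 25097140), and no other gene overlaps it in GENCODE M21. It was the most abundant of the 6 genes, and by mean normalized count it was number 63 of the 11711 genes tested. The WT libraries held 40587 and 43063 counts of it, compared with 24268 and 30207 counts in the ICAM-1 KO-labelled libraries. Its normalized counts were 1340 and 1364 in WT and 842 and 962 in the ICAM-1 KO-labelled libraries, so the WT libraries lay close together and both libraries of the other label were well below them. The normalized count fell from 1352 ± 16.7 in WT (SD, n = 2) to 902 ± 84.9 under the other label, with a log2 fold change of -0.56 (SE, the standard error, 0.093 and adjusted p = 0.00743 from edgeR's quasi-likelihood method, with Benjamini-Hochberg adjustment across the genes tested). WT was thus 1.47-fold higher. Without WT replicate 2 the log2 fold change was -0.54 and the adjusted p 0.0526.

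Id3, which like Id2 pairs with E proteins and limits how far they act in lymphocytes, lies on chromosome 4 from 136143497 to 136145755 on the plus strand, again with no overlapping gene. WT held 381 and 380 counts of it, compared with 839 and 1046 in the ICAM-1 KO-labelled libraries. Its normalized counts were 12.6 and 12.1 in WT and 29.2 and 33.4 in the ICAM-1 KO-labelled libraries, with no overlap between the groups. It rose from 12.3 ± 0.387 (SD, n = 2) to 31.3 ± 2.97, 2.59-fold or 1.37 on the log2 scale (SE 0.186 and adjusted p = 0.00298, same test). The adjusted p stayed under 0.05 in each of the 4 fits that left out 1 library, at 0.000272 to 0.0205.

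Id1, an Id protein best known from endothelium, stem cells and BMP signalling, lies on chromosome 2 from 152736251 to 152737410 on the plus strand. It was the rarest Id gene tested, at 135 and 65 counts for WT compared with 270 and 297 in the ICAM-1 KO-labelled libraries. The normalized counts were 4.49 and 2.09 in WT and 9.41 and 9.49 in the ICAM-1 KO-labelled libraries, so the WT libraries differed from each other by more than a factor of 2 and still lay below the other pair. Id1 rose from 3.29 ± 1.70 (SD, n = 2) to 9.45 ± 0.062, a log2 fold change of 1.57 (SE 0.372 and adjusted p = 0.0272 by quasi-likelihood in edgeR). This log2 fold change was 1.11 without WT replicate 2 (adjusted p = 0.116) and 2.22 without WT replicate 1. The adjusted p was also above 0.05 without a filter on low counts, at 0.0915, and with the older form of the test, at 0.0535. Beside Id1 and Id3, the summed normalized count of 18 endothelium markers stood at 202 and 212 for WT and at 583 and 614 under the other label, and its part in their change was not tested. Id4, the remaining Id gene, had 0 counts in both WT libraries and 4 and 21 counts in the ICAM-1 KO-labelled libraries, and it did not pass the limits on low counts.

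The upstream sequences of Id2 and Id3 are shown because these genes moved in opposite directions. They hold the 250 bases before the RefSeq start site, read 5′ to 3′ on the strand of the gene from GRCm38.p6, with matches to the E-box CANNTG in capitals. The Id2 stretch is chr12:25096093-25096342 on the minus strand and the Id3 stretch is chr4:136143572-136143821 on the plus strand. Both stretches lie within the span that GENCODE M21 gives their gene, which begins further 5′. They are thus upstream of the RefSeq start site only.
Id2: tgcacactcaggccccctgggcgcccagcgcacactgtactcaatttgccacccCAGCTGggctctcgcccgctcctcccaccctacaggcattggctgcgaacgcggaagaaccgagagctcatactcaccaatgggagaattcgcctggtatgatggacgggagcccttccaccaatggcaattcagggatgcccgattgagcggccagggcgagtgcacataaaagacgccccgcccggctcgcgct
Id3: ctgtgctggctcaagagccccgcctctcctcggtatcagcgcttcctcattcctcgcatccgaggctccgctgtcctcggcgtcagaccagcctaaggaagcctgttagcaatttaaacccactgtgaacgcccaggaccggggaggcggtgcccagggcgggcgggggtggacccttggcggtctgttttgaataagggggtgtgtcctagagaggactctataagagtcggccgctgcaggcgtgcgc

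Id2 had 1 match to CANNTG, the form CAGCTG, from 196 to 191 bases before its start site, and Id3 had 0. CANNTG reads the same on both strands, and 66.2% of the 32851 upstream windows of this length in the RefSeq table held at least 1 match, while 13% held the form of Id2. The form CAGGTG, searched on both strands and also a form of CANNTG, matched neither window, and 17.2% of all windows held it. GGCGCC, a GC-rich motif known to bind BMP-activated SMAD proteins, matched the Id2 window 1 time and the Id3 window 0 times, and 9.59% of all windows held it. Tcf3 had 1 match to CANNTG, and of the 3 windows of Tcf12 there were 2 with 1 match each. Id1 had no window in the RefSeq table, and Tcf4 was set aside by choice and is not among the member windows.

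Within each library, the count of Id2 divided by that of Id3 does not depend on how the libraries are scaled to each other. This ratio was 107 and 113 in the WT libraries and 28.9 in both ICAM-1 KO-labelled libraries. Both WT values were therefore far above the others, and the libraries of a label lay close together. On the log2 scale the ratio was 6.78 ± 0.063 (SD, n = 2) in WT and 4.85 ± 0.0017 in the ICAM-1 KO-labelled libraries, a difference of -1.93, which is 3.80-fold. The exact permutation test over the libraries (two-sided) gave p = 0.333, the smallest value that 2 against 2 libraries allow. Across the 4 ways to leave out a library the difference ranged from -1.97 to -1.88.

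Id3 made up 0.930% of the summed Id2 and Id3 counts in WT replicate 1 (exact 95% binomial interval 0.839% to 1.03%) and 0.875% in WT replicate 2 (0.789% to 0.967%). In ICAM-1 KO replicate 1 the share was 3.34% (3.12% to 3.57%) and in replicate 2 it was 3.35% (3.15% to 3.55%). These intervals treat every read as a separate draw and leave out the variation between libraries. The libraries had no molecular identifiers, so reads copied from the same molecule cannot be told apart, and the intervals may be too narrow. Id2 thus remained by far the larger part of the pair under both labels.

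**Figure D2:**
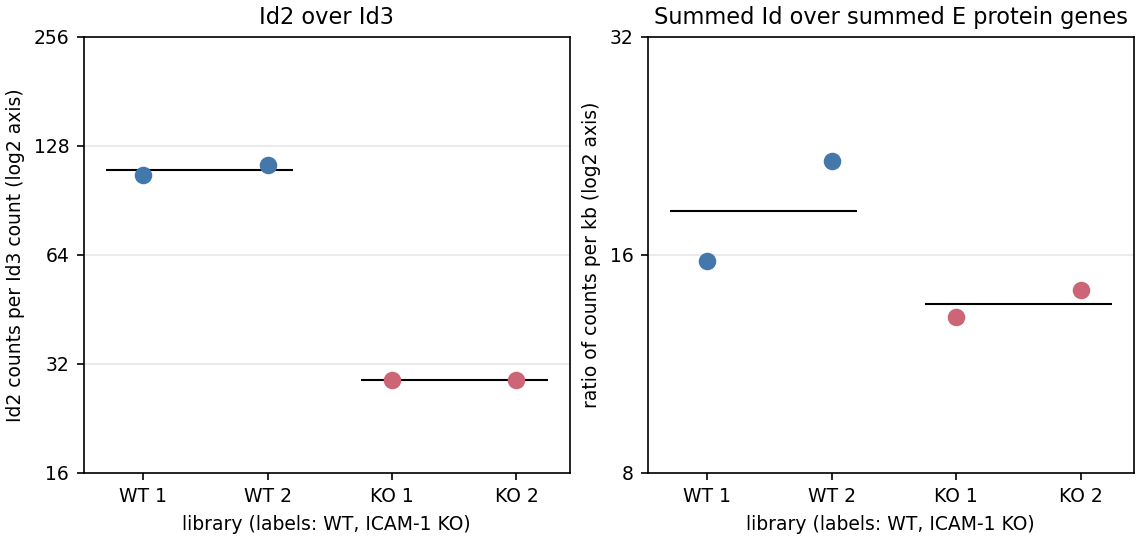
Ratio of Id2 to Id3 counts (left) and of summed Id to summed E protein counts per kb of exon (right) in each library, on log2 axes, with the geometric mean of each label as a line. The Id2 to Id3 ratios are 107 and 113 in WT and 28.9 for both libraries under the ICAM-1 KO label, whereas the Id to E protein ratios of WT replicate 1 (15.7) and ICAM-1 KO replicate 2 (14.3) lie close together.

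None of the E protein genes passed the threshold, and their log2 fold changes lay between -0.16 and 0.71. Tcf3, whose products E12 and E47 start the B cell programme, lies on chromosome 10 from 80409514 to 80433647 on the minus strand with no overlapping gene. Its counts were 3967 and 2853 for WT, compared with 2697 and 3177 in the ICAM-1 KO-labelled libraries. As normalized counts these were 131 and 90.4 in WT and 93.6 and 101 in the ICAM-1 KO-labelled libraries, and both of the latter lay between the WT values. The log2 fold change of Tcf3 was -0.16 (SE 0.161 and adjusted p = 0.564 by quasi-likelihood in edgeR), and it was 0.14 without WT replicate 1.

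Tcf4, whose product E2-2 is the lineage factor of plasmacytoid dendritic cells, lies on chromosome 18 from 69343356 to 69689079 on the plus strand, where 1 small rRNA gene overlaps it. The WT counts of 457 and 731 stood against 988 and 856 in the ICAM-1 KO-labelled libraries. Its normalized counts were 15.1 and 23.2 in WT and 34.3 and 27.3 in the ICAM-1 KO-labelled libraries, so the groups did not overlap but the WT libraries were far apart. The means were 19.2 ± 5.71 (SD, n = 2) and 30.8 ± 4.97, a log2 fold change of 0.71 (SE 0.226, unadjusted p = 0.0121, adjusted p = 0.0692 by quasi-likelihood in edgeR). DESeq2 gave an adjusted p of 0.0265 for it, and the 6 other alternatives that kept all libraries gave 0.0694 to 0.185. Leaving out WT replicate 2 or ICAM-1 KO replicate 2 gave 0.0455 and 0.029, and leaving out WT replicate 1 or ICAM-1 KO replicate 1 gave 0.254 and 0.223.

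Tcf12, whose product HEB acts beside E2A in thymocytes, lies on chromosome 9 from 71842688 to 72111871 on the minus strand. In GENCODE M21, 11 genes overlap it, 7 of them on its own strand, so its count may share reads with them. The WT counts were 1315 and 1543, against 1683 and 1664 in the ICAM-1 KO-labelled libraries. The normalized counts of 43.4 and 48.9 in WT were below those of 58.5 and 53.0 in the ICAM-1 KO-labelled libraries by a narrow margin. The log2 fold change of Tcf12 was 0.30 (SE 0.127, unadjusted p = 0.0445 and adjusted p = 0.153, same test).

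**Figure D3:**
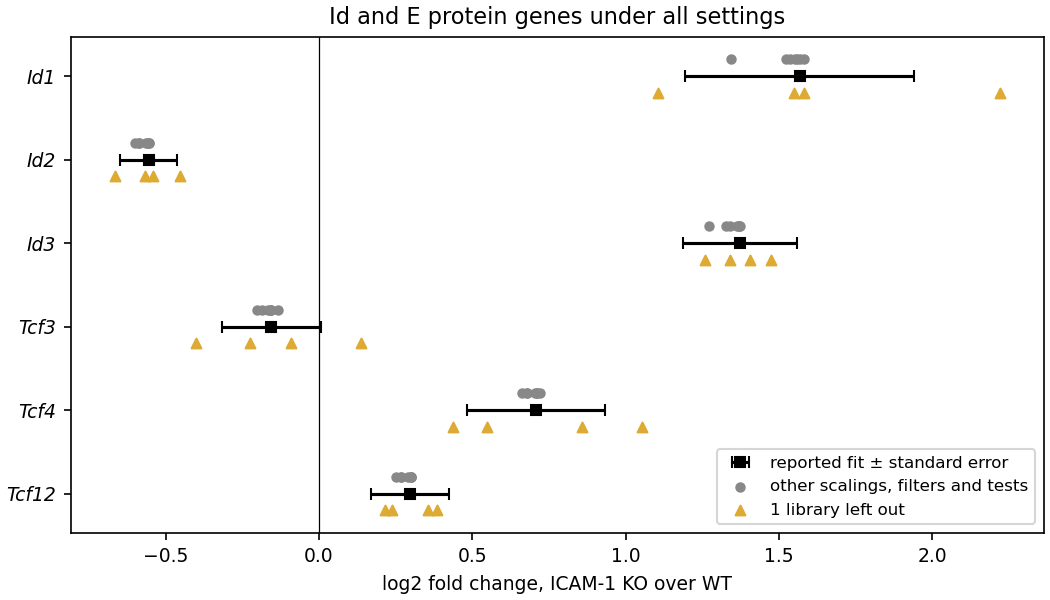
Log2 fold change (ICAM-1 KO-labelled libraries over WT) of each Id and E protein gene in the reported edgeR fit with its standard error (squares), under 7 other scalings, filters and tests (circles) and with each of the 4 libraries left out in turn (triangles). Id1 and Id3 stay above 0 and Id2 below 0 in every fit, Id1 spreads most when a library is left out (1.11 to 2.22), and Tcf3 lies on both sides of 0.

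Levels of different genes were compared per length, as TPM (each gene's count per base of exon, as a share of the library), computed from the counts and the summed length of all exons of each gene. In WT, Id2 stood at 1722 ± 11.8 TPM (SD, n = 2 libraries), Tcf3 at 85.3 ± 23.7, Id3 at 21.3 ± 1.08, Tcf12 at 9.22 ± 0.593, Id1 at 8.77 ± 4.71 and Tcf4 at 2.16 ± 0.606. The levels of Tcf12 and Id1 in WT did not differ beyond their spread. In the ICAM-1 KO-labelled libraries, Id2 stood at 1194 ± 66.3 TPM, Tcf3 at 77.9 ± 1.29, Id3 at 56.2 ± 3.19, Id1 at 26.2 ± 0.836, Tcf12 at 11.6 ± 1.24 and Tcf4 at 3.64 ± 0.726. The order was thus the same under both labels except for Id1 and Tcf12. With the longest annotated transcript as the length, Tcf12 stood at 17.3 TPM in WT and 22.1 in the ICAM-1 KO-labelled libraries, above Id1 at 6.67 and 20.3, and the other genes kept their places. Tcf4 and Tcf12 have 62 and 21 annotated transcripts, and the counts do not show which of them were present.

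Id2 made up 98.1% and 98.5% of the summed TPM of Id1, Id2 and Id3 in the WT libraries and 93.4% and 93.7% in the ICAM-1 KO-labelled libraries. Id3 made up 1.25% and 1.18% in WT and 4.40% and 4.41% under the other label, and Id1 0.686% and 0.312% against 2.18% and 1.94%. Among the E protein genes, Tcf3 made up 90.6% and 84.9% of the summed TPM in WT and 82.2% and 85% in the ICAM-1 KO-labelled libraries, so the groups overlapped. Tcf12 made up 7.82% and 11.9% in WT and 13.3% and 11.6% in the ICAM-1 KO-labelled libraries, and Tcf4 1.54% and 3.21% against 4.44% and 3.38%.

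Summed over the Id genes and over the E protein genes, the level of the inhibitors exceeded that of their partners in every library. The ratio per kb was 15.7 and 21.5 in WT and 13.1 and 14.3 in the ICAM-1 KO-labelled libraries. On the log2 scale it was 4.20 ± 0.325 (SD, n = 2) in WT and 3.78 ± 0.088 in the other group, a difference of -0.42, with an exact permutation p of 0.333 (two-sided), the smallest possible here. This difference was smaller than the gap between the WT libraries, at 3.97 and 4.43 on the log2 scale, so it did not exceed the spread between replicates. It was -0.65 without WT replicate 1 and -0.19 without WT replicate 2.

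**Figure D4:**
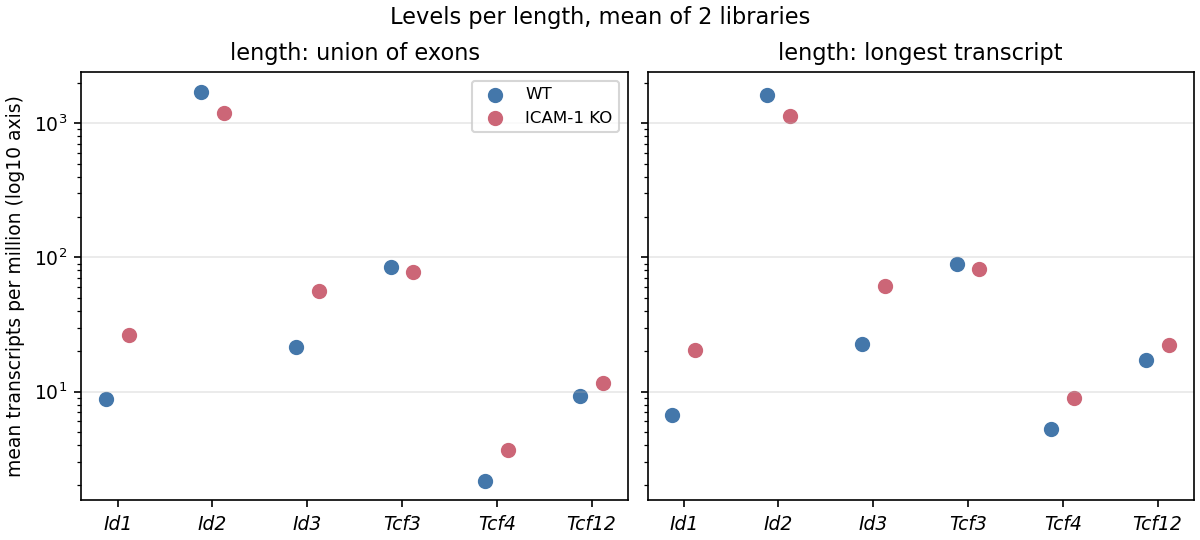
Mean TPM of each Id and E protein gene in WT and in the ICAM-1 KO-labelled libraries (n = 2 each) on a log10 axis, with the union of exons (left) or the longest transcript (right) as the length. Id2 lies at 1144 TPM or higher in every case, Tcf3 follows between 77.9 and 88.9, and the place of Tcf12 relative to Id1 depends on the length used.

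Tissue-restricted basic helix-loop-helix proteins bind DNA as pairs with E proteins, and of 44 such genes listed 3 were abundant enough to be tested. Msc, which encodes the repressor MyoR (ABF-1), gave 696 and 820 counts for WT, compared with 233 and 276 in the ICAM-1 KO-labelled libraries. It fell from 24.5 ± 2.10 to 8.48 ± 0.506 normalized counts (SD, n = 2), a log2 fold change of -1.51 (SE 0.213 and adjusted p = 0.00346 by quasi-likelihood in edgeR). The other two did not pass the threshold, with log2 fold changes of 0.94 for Bhlha15 (MIST1, a factor of secretory cells) and -0.15 for Mesp2 (adjusted p = 0.249 and 0.835). Tal1 and Lyl1, E protein partners of blood stem cells, had at most 19 counts in any library.

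Of 13 genes for cofactors and turnover of Id and E proteins, 12 were tested and none passed an adjusted p under 0.05. Of all genes tested, 8.8% were higher and 4.97% lower by this rule, so with 12 genes the count is near that share. The median log2 fold change of the 12 was -0.03. The most abundant of these cofactor genes were Lmo4, a LIM-only adaptor, Usp1, the protease that removes ubiquitin from Id proteins, and Ldb1, the scaffold that joins LIM-only proteins to E protein complexes. Their log2 fold changes were -0.26, -0.27 and -0.09 (adjusted p = 0.252, 0.108 and 0.631 by quasi-likelihood in edgeR). By quasi-likelihood in edgeR, the coactivator gene Crebbp, named after its value was seen, had a log2 fold change of 0.40 and an adjusted p of 0.0513.

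Of 17 known E protein target genes of lymphocytes, 10 were tested, 2 were higher and none was lower with an adjusted p under 0.05, where 8.8% of all genes tested were higher, so with 10 genes the count is near that share. Their median log2 fold change was 0.44, with 8 positive and 2 negative values. Cd4, the coreceptor of helper T cells, rose from 24.8 ± 3.54 to 71.0 ± 13.5 normalized counts (SD, n = 2), a log2 fold change of 1.55 (adjusted p = 0.00143). Cd79a, the signalling chain of the B cell receptor, had a log2 fold change of 0.63 (adjusted p = 0.0175). Both are also markers of T and B cells in the lists given below. The most abundant targets did not pass, with log2 fold changes of -0.22 for the cell cycle inhibitor Cdkn1a, 0.21 for Socs3, a brake on cytokine signalling, and 0.24 for the transcription factor Foxo1 (adjusted p = 0.189, 0.209 and 0.207).

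BMP ligands induce Id genes through SMAD1 and SMAD5. Of 18 genes of this pathway 14 were tested, and 6 were higher and none was lower with an adjusted p under 0.05, against the same 8.8% higher and 4.97% lower of all genes tested. The median log2 fold change was 0.16, with 7 positive and 7 negative values. Among the ligands, Bmp6 rose from 176 and 141 counts in WT to 640 and 713 (log2 fold change 2.16, adjusted p = 0.00143). The most abundant ligand genes Bmp7 and Bmp2 did not pass, with log2 fold changes of -0.05 and -0.45 (adjusted p = 0.875 and 0.124). Among the receptors, Acvrl1 (ALK1, best known from endothelium) rose from 17.6 ± 0.680 to 54.2 ± 2.14 in normalized count (log2 fold change 1.65, adjusted p = 0.000496), and its coreceptor gene Eng rose by 1.38 on the log2 scale (adjusted p = 0.00159). The other higher genes, named after their values were seen, were Smad6 and Smad7, the inhibitors of the pathway, and the receptor gene Bmpr2, with log2 fold changes of 2.31, 0.59 and 1.03 (adjusted p = 0.00323, 0.028 and 0.0185). Smad1, Smad5 and Smad4, which carry the signal to the nucleus, had log2 fold changes of -0.01, -0.05 and -0.08 (adjusted p = 0.986, 0.922 and 0.681). All of these adjusted p-values are by quasi-likelihood in edgeR over all genes.

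**Figure D5:**
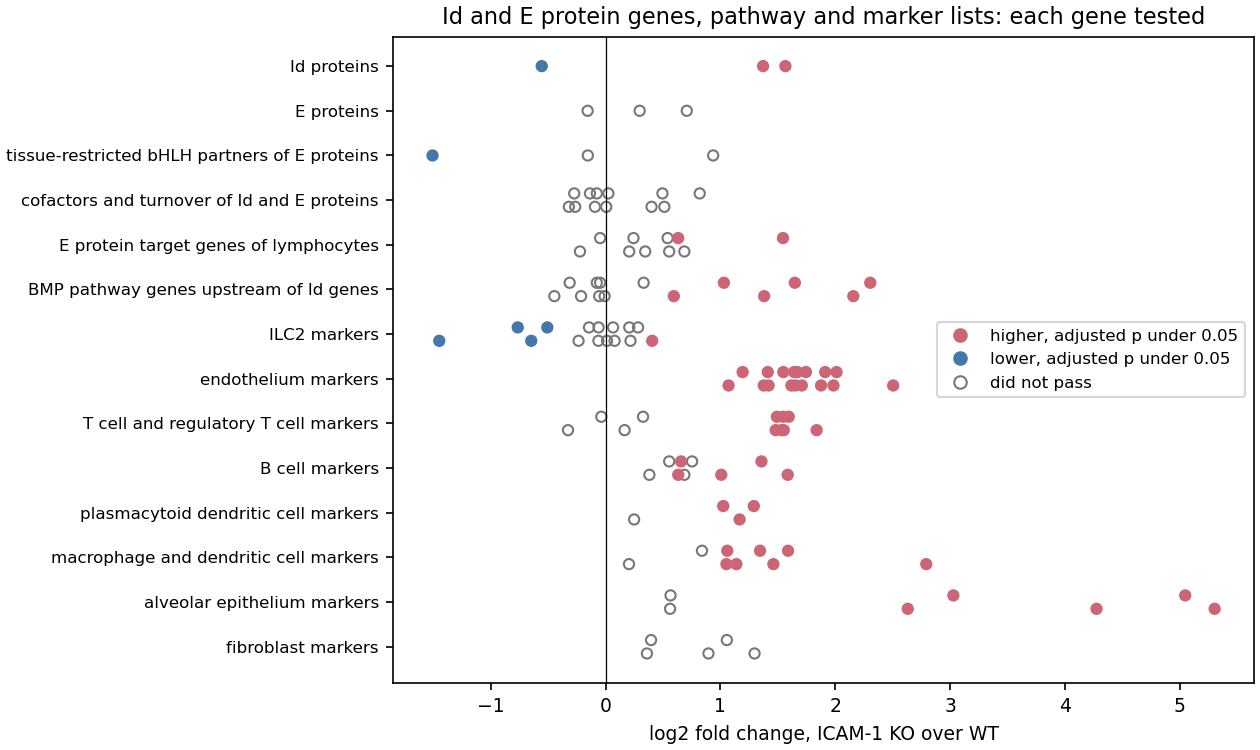
Log2 fold change (ICAM-1 KO-labelled libraries over WT) of each tested gene of the Id and E protein genes, the pathway lists and the cell type marker lists, filled where the adjusted p is under 0.05 (red higher, blue lower). All 17 endothelium markers tested lie above 0 and are filled, while none of the E protein genes or their cofactors is. Of all genes tested, 8.8% were higher and 4.97% lower by this rule.

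Marker genes of other lung cells moved with the same labels. For comparison with the counts of each list, 8.8% of all genes tested were higher and 4.97% lower with an adjusted p under 0.05. The endothelium markers had 17 of 18 genes tested, all 17 higher with an adjusted p under 0.05 (median log2 fold change 1.65), beside the sums given with Id1. Ptprb, Pecam1 and Ramp2, the most abundant of them, had log2 fold changes of 2.51, 1.07 and 1.41. None of these markers was at 0 in all libraries. Their part in the changes of Id1, Id3, Acvrl1, Eng, Bmp6 and Smad6 was not tested. Endothelial cells lack CD45, which the sort required. In pooled bulk samples a larger share of such cells and more RNA per cell cannot be told apart.

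The 11 T cell and regulatory T cell markers were all tested, and 7 were higher and none lower, against 8.8% and 4.97% of all genes tested. Their summed normalized count was 662 and 878 in WT and 1239 and 1477 in the ICAM-1 KO-labelled libraries. The most abundant were Ctla4, Trac and Foxp3 with log2 fold changes of 0.33, 1.60 and 1.84, of which that of Ctla4 did not pass (adjusted p = 0.164). Genes of the T cell receptor complex and coreceptor that did not pass either were Cd3g, Cd3e and Cd8a, at -0.33, 0.17 and -0.04 (adjusted p = 0.158, 0.69 and 0.962 by quasi-likelihood in edgeR). Of 9 B cell markers 5 were higher, with sums of 184 and 171 in WT and 355 and 292 under the other label, and Ms4a1, the gene of CD20, had a log2 fold change of 1.01. Of 7 plasmacytoid dendritic cell markers 4 were tested and 3 were higher, with Ly6d and Ccr9 at log2 fold changes of 1.17 and 1.29. The sums of this list were 51.9 and 57.7 in WT and 122 and 111 in the ICAM-1 KO-labelled libraries. Pacsin1, also tested, did not pass, at 0.25 (adjusted p = 0.691 by quasi-likelihood in edgeR). Siglech, Klk1 and Cox6a2 did not pass the limits on low counts. The lineage markers of the sort remove T and B cells, and the part of any that remained in the values of Id3, Tcf4, Tcf12, Cd4 and Cd79a was not tested.

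Of the macrophage and dendritic cell markers 7 of the 9 tested were higher, against 8.8% of all genes tested. Their sums were 255 and 253 in WT and 503 and 767 in the ICAM-1 KO-labelled libraries, and Lyz2 had a log2 fold change of 1.46. Of the alveolar epithelium markers 5 of the 7 tested were higher, with sums of 80.5 and 44.8 in WT and 418 and 856 under the other label. None of the 5 fibroblast markers tested passed, and with 5 genes this count is near the share over all genes. Their sums were 15.5 and 47.9 in WT and 36.4 and 78.4 under the other label. No gene of these lists was at 0 in all libraries, and their part in the values of the Id genes was not tested. For Id2, the ILC2 genes that were lower in the same libraries were Arg1, Il5, Il13 and Il2ra, with log2 fold changes of -0.65, -0.76, -1.45 and -0.51. Klrg1 was the ILC2 gene that was higher, at 0.41. The other 10 did not pass, among them Areg at -0.23, Il1rl1 (the gene of ST2) at 0.21, Rora at 0.08, Icos at 0.07, Cd44 at 0.01, Bcl11b at 0.22 and Il7r (the gene of CD127) at 0.28, with adjusted p-values of 0.0513 for Il7r and 0.17 or higher for the others (all adjusted p-values by quasi-likelihood in edgeR). Whether the lower Id2 count followed a lower share of ILC2s was not tested.

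The genes whose pattern over the 4 libraries was nearest to that of Id2 or Id3 were found by the root mean square difference of log2 normalized counts, each centred on its own mean, among 8918 other genes whose normalized count averaged at least 10. With 4 libraries many genes can share a pattern, and this is a description. Nearest to Id2 were Tomm40l, Ankrd13b and Pfdn2, at root mean square differences of 0.0176, 0.0179 and 0.0198. Their log2 fold changes were -0.54, -0.54 and -0.53, and by quasi-likelihood in edgeR that of Ankrd13b did not pass the threshold (adjusted p = 0.128). Nearest to Id3 were Themis2, Eng and Trp53inp2, at 0.0327, 0.0462 and 0.0543, with log2 fold changes of 1.33, 1.38 and 1.26.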

How the data were processed

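SMARTer low-input cDNA reads were aligned with STAR (version 3.5.3 per the submitters' processing notes, while the paper names another version) to mm10 with GENCODE M20, and the authors deposited expected counts per gene from the E/M model of Partek, not normalized. They also deposited a normalized signal for 18324 genes, scaled to a common upper quartile, which equals the count plus 1 times 1 factor per library within a relative tolerance of 0.001. Whether counting used strand is not stated.

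Counts were rounded and tested with edgeR 4.0.16 (upper quartile factors, glmQLFit with legacy set to FALSE, no covariate) in R 4.3.3. The study's GSA test was not run here. Genes were kept where the normalized count averaged at least 1 and summed to at least 10 over the 4 libraries, and p-values were adjusted by Benjamini-Hochberg over all 11711 genes tested. The standard error is the log2 fold change divided by the root of its F statistic. TPM used GENCODE M21 exon lengths of the 21881 genes whose symbol and position matched. Alternatives were TMM factors, DESeq2 1.42.0, limma 3.58.1 on log2 of the normalized count plus 1, no filter, filterByExpr, the older quasi-likelihood method, a replicate block and leaving out each library. The fits were tested on simulated data.

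The genes and lists were chosen with earlier results of these data known. Named are the 6 genes, Id4, Icam1, up to 3 of the most abundant genes of each list, up to 2 pathway genes with the smallest adjusted p in each direction, and the 3 genes nearest in pattern to Id2 and to Id3. Genes of the ILC2, T cell and plasmacytoid dendritic cell lists beyond this rule, Tal1 and Lyl1, Smad1 and Smad5 were named after their values were seen. Upstream sequences are RefSeq's.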

Additional observations from a re-analysis of the deposited data

How the results depend on the processing

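With 2 libraries per label and pooled mice, adjusted p-values rest on a spread shared over genes, and a fit that leaves out 1 library assumes that the lone library of its label varies like the other label. Id3 kept its direction and an adjusted p under 0.05 in all 7 other fits and in all 4 that left out a library. Id2 did so except without WT replicate 2. Id1 kept its direction, but its log2 fold change of 1.52 without a filter on low counts and of 1.56 with the older quasi-likelihood method did not pass. Tcf4 passed with DESeq2, at a log2 fold change of 0.70. The adjusted p over the 7 other fits ranged from 0.00399 to 0.0915 for Id1, from 2.48e-08 to 0.0268 for Id2, from 1.59e-08 to 0.0265 for Id3 and from 0.0265 to 0.185 for Tcf4. Without a filter on low counts, 273 genes were called higher and 39 lower, against 578 and 63. The cause of these moves was not tested.

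Over the 4 fits that each left out a library, log2 fold changes ran from 1.11 to 2.22 for Id1, from -0.67 to -0.45 for Id2, from 1.26 to 1.47 for Id3, from -0.40 to 0.14 for Tcf3, from 0.44 to 1.05 for Tcf4 and from 0.22 to 0.39 for Tcf12. Tcf3 turned positive without WT replicate 1. The genes called higher ranged from 338 (without WT replicate 1) to 596 and those called lower from 48 to 80. The Id to E protein difference ranged from -0.65 to -0.19. With the longest transcript as the length, the mean level over all libraries was 1383 TPM for Id2, 7.13 for Tcf4 and 19.7 for Tcf12, against 1458, 2.90 and 10.4 with the union of exons.

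Libraries with the same replicate number share only that number, and their deviations from the group means correlated at -0.058 across genes. With the replicate block, 601 genes were called higher and 67 lower, and the log2 fold changes of Id1, Id2, Id3, Tcf3, Tcf4 and Tcf12 were 1.58, -0.56, 1.37, -0.13, 0.72 and 0.30, with no call changed. The Id2 to Id3 difference was -1.93 and the Id to E protein difference -0.42 as means of the paired differences.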
